A study of Saccharomyces kudriavzevii and Saccharomyces cerevisiae and Kluyveromyces marxianus with 12 samples.

Results

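The budding yeast Saccharomyces cerevisiae was compared at 40 °C, a heat shock, and at 33 °C, the growth optimum the study assigns to it, by RNA sequencing of 2 libraries at each temperature. These are 4 of the 12 libraries of a series that treated 3 yeast species in parallel, chosen because their labels name S. cerevisiae strain BY4742. All 6017 genes of the deposited tables are members, and 5786 of them had enough reads to be tested. BY4742 is a haploid laboratory strain of the alpha mating type that carries the auxotrophic alleles ura3Δ0, leu2Δ0, his3Δ1 and lys2Δ0. Controls and heat-shocked cells shared this genotype, growth in rich medium (YPD) with 2% dextrose to an optical density between 0.2 and 0.4, and a holding time that the labels give as 8 min in a small tube, and by the labels the groups differed in temperature alone. One passage of the study names a longer stress, and the time used here is that of the labels. The study calls its replicates biological, and the labels number them as such without naming separate cultures, so the p-values measure the spread between these samples.

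In yeast, a sudden rise in temperature slows growth for a time, and transcription is redirected within minutes. The factor Hsf1 turns on chaperones, the factors Msn2 and Msn4 turn on a broad set of genes for protection and for storage carbohydrates, and genes for making ribosomes are turned down. The accounts below go through the other pathways of the cell in the same libraries: carbon and energy metabolism, protein breakdown, secretion and the cell wall, biosynthesis, the gene expression machinery, growth control and mating.

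Each library held 18911098 to 23476002 counts on genes, and the share of reads given to no gene was 5.91% to 6.60%. A level is given as counts per 1000000 (CPM) after TMM scaling, in the order control replicate 1, control replicate 2, heat shock replicate 1, heat shock replicate 2, unless stated. The deleted genes URA3, LEU2 and LYS2 had 0 counts in all 4 libraries, while HIS3, whose his3Δ1 allele lacks only a part of the gene, had 1633 to 3494 counts. The alpha pheromone gene MF(ALPHA)1 stood at 1847 and 1816 CPM in the controls, and the a-cell pheromone genes MFA1 and MFA2 stood between 1.10 and 3.25 CPM in every library. The markers therefore carried the pattern of the labelled strain. Replicates differed by more than the sampling noise of their counts. RNA per cell was not measured, so every level is relative to the rest of the same library.

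A majority of genes, 3841 of the 5786 tested (66.4%), changed. At an adjusted p under 0.05 (edgeR's quasi-likelihood test, Benjamini-Hochberg), 1947 genes rose at 40 °C (33.7%) and 1894 fell (32.7%). By 2-fold or more, 679 rose (11.7%) and 783 fell (13.5%), and 76 rose and 80 fell by 8-fold or more. The median log2 fold change of all genes was 0.03, and the middle of the distribution ran from −0.49 to 0.53 at its quartiles. Genes that rose held 22.8% and 20.6% of the counts in the controls and 59.6% and 61.0% after heat shock. Genes that fell went from 58.4% and 61.3% to 21.1% and 20.3%. The CPM of the conditions did not overlap for 85.4% of the genes tested, so with 2 libraries a group a lack of overlap says little about any single gene.

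The largest rise was that of SSA4, a cytosolic Hsp70 chaperone, at 75.6, 65.4, 8374 and 10267 CPM, a log2 fold change of 7.05 (SE 0.19, adjusted p = 3.96e-06). HSP12, which codes for a small membrane-associated stress protein, stood at 192, 106, 17045 and 17363 CPM, and per kilobase of coding sequence it was the most abundant transcript of the heat-shocked cells. Both controls were far below both heat shock libraries for every one of the 15 largest rises. Outside the chaperones these included enzymes and small proteins of metabolism. ALD3, a cytosolic aldehyde dehydrogenase, went from 18.3 and 15.5 to 1110.3 and 1333 CPM. RGI1, a respiratory growth protein, went from 23.4 and 12.6 to 833 and 1136 CPM. CYC7, the isoform of cytochrome c known from low-oxygen growth, went from 4.55 and 3.10 to 142 and 178 CPM. Also among them were HSP30, a plasma membrane protein that restrains the proton pump Pma1 (6.18), EGO4 (5.96), the small chaperone HSP26 (5.96), GND2 and SOL4 of the pentose phosphate pathway (5.19 and 5.16), FMP45 of the plasma membrane (5.18), FMP16 (4.89), RTC3 (4.81), BTN2, which sorts misfolded proteins (4.79), and YCL048W-A, which the annotation leaves without a name (5.16). In 12 of these 15 genes control replicate 1 exceeded control replicate 2 by more than 1.3-fold, and the log2 fold changes without either control kept their sign.

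**Figure D1:**
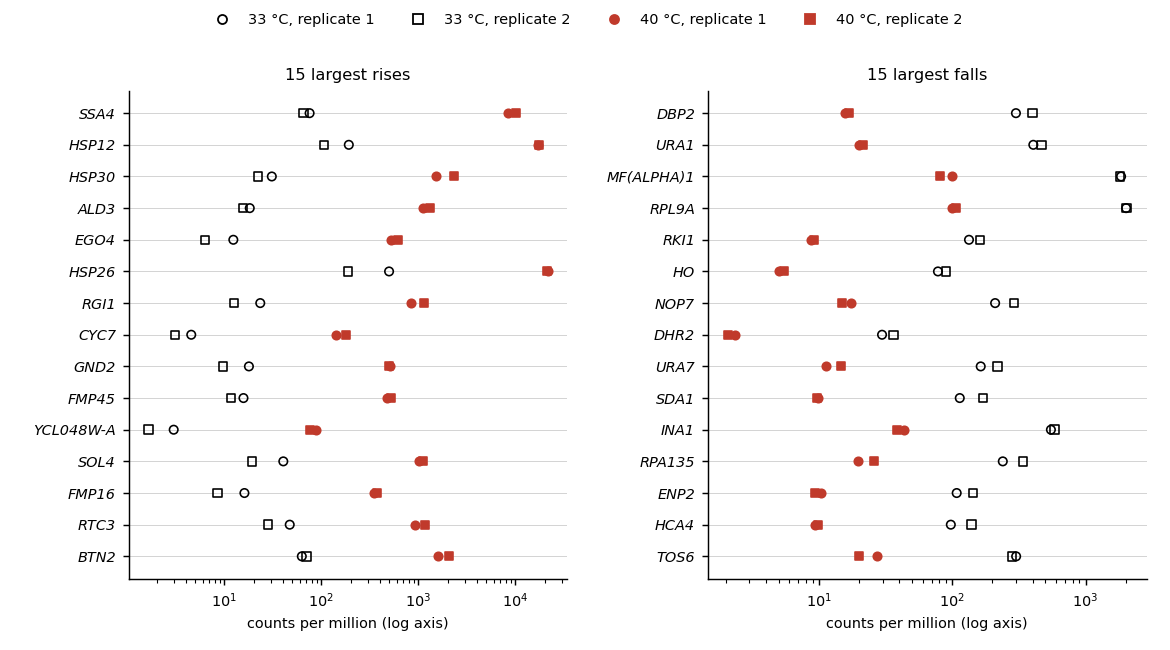
Counts per 1000000 (log axis) of the 15 genes that rose most and the 15 that fell most, with 1 symbol per library; open symbols are the 33 °C controls and filled symbols the 40 °C libraries. SSA4 sits near 75.6 and 65.4 CPM in the controls and at 8374 and 10267 CPM after heat shock, and DBP2 moves from 300.4 and 399 to 15.6 and 16.8 CPM.

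The largest fall was that of DBP2, an RNA helicase, at 300.4, 399, 15.6 and 16.8 CPM (log2 fold change −4.43, SE 0.17, adjusted p = 3.96e-06). URA1, dihydroorotate dehydrogenase of pyrimidine synthesis, followed at 406, 468, 19.8 and 21.5 CPM (−4.40). MF(ALPHA)1 fell from 1847 and 1816 to 99.6 and 80.7 CPM (−4.34). The ribosomal protein gene RPL9A fell from 2014 and 2033 to 100.1 and 107 CPM (−4.29), and RKI1, the only ribose 5-phosphate isomerase gene, fell from 134 and 162 to 8.72 and 9.25 CPM (−4.04). Factors of ribosome assembly made up a large part of the rest: NOP7 (−3.95), DHR2 (−3.89), SDA1 (−3.87), ENP2 (−3.66) and HCA4 (−3.63), with RPA135, the second-largest subunit of RNA polymerase I (−3.67). The remaining falls were those of URA7, a CTP synthase (−3.88), the endonuclease gene HO (−4.01) and the cell surface genes INA1 (−3.79) and TOS6 (−3.62).

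Stretches of promoter show what sequence lies before genes at both ends of the response. The motifs are short words known as binding sites of yeast regulators: the stress response element STRE (AGGGG, Msn2 and Msn4), PAC (GATGAG, Dot6 and Tod6) and RRPE (AAAATTTT, Stb3). Printed here, from build R64 and in the direction of the gene, are the 150 bases farthest from the start codon among the 250 before it, for the 2 genes with the largest rise among those with at least 3 STREs there and the 2 with the largest fall among those with both PAC and RRPE there. Capitals mark the motifs on either strand, and overlapping copies run together.
HSP42, small heat shock protein, chrIV:806371-806520, plus strand: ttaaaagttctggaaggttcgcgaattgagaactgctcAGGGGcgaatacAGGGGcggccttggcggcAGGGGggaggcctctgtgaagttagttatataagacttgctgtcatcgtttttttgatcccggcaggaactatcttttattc
DDR2, small stress protein, chrXV:231856-232005, minus strand: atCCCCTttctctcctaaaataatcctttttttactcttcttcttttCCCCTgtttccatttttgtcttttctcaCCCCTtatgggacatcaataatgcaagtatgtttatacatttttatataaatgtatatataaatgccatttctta
DBP2, RNA helicase, chrXIV:413389-413538, plus strand: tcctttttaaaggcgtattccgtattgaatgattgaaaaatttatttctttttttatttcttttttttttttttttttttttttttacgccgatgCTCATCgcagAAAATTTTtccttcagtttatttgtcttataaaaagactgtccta
NOP7, large-subunit assembly, chrVII:695167-695316, plus strand: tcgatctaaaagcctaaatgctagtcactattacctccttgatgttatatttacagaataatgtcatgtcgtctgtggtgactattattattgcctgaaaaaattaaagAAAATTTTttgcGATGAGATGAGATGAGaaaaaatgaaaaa
HSP42 stood at 106, 69.2, 2283 and 2525 CPM and DDR2 at 94.6, 37.4, 1796 and 1699 CPM, while NOP7 went from 209.7 and 290.3 to 17.4 and 14.8 CPM.

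Across the 5784 promoters searched over 250 bases and on both strands, STRE stood in 19.0% of all, in 43.8% of those of genes that rose by at least 2-fold and in 9.20% of those that fell by as much. Genes with no STRE rose in 28.7% of cases, against 52.3% with 1 copy, 70.1% of the 107 genes with 2 copies and 78.3% of the 23 with 3 or more. PAC stood in 16.5% of all promoters and in 41.9% of those of genes lower by at least 2-fold, and RRPE in 8.83% and 32.7%. Of the 243 genes with both words, 212 fell (87.2%) and 11 rose, with a median log2 fold change of −1.98, against 45.1% with PAC alone and 59.7% with RRPE alone. With the ribosomal protein and ribosome assembly lists left out, 148 of 179 genes with both words fell. A match is a description of the letters and not a site shown to be bound, and longer intergenic regions were not searched beyond 250 bases.

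**Figure D2:**
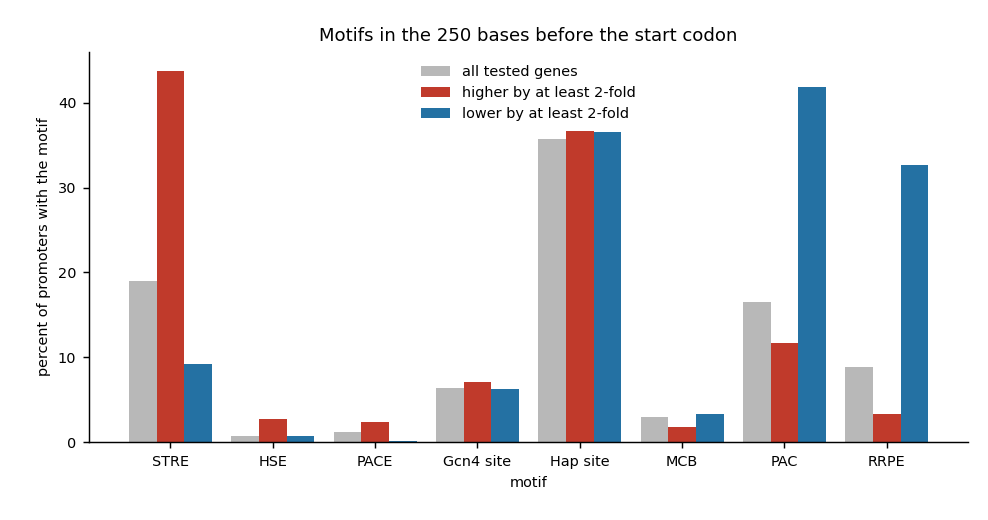
Percent of promoters (250 bases before the start codon, both strands) that hold each motif, for all tested genes and for genes higher or lower by at least 2-fold. STRE stands in 43.8% of promoters of rising genes, PAC and RRPE in 41.9% and 32.7% of those of falling genes, and the Hap and Gcn4 sites differ little among the 3 classes.

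In what follows 67 lists of named genes are used, together with all 137 tested genes of the cytosolic ribosome. They cover 32.6% of the genes tested, and their counts are to be read against the 33.7% of all genes that rose and the 32.7% that fell. A list's median is a median of log2 fold changes, beside 0.03 for all genes. Only RNA was measured, so a rise or fall of a pathway refers to its transcripts and not to its activity.

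**Figure D3:**
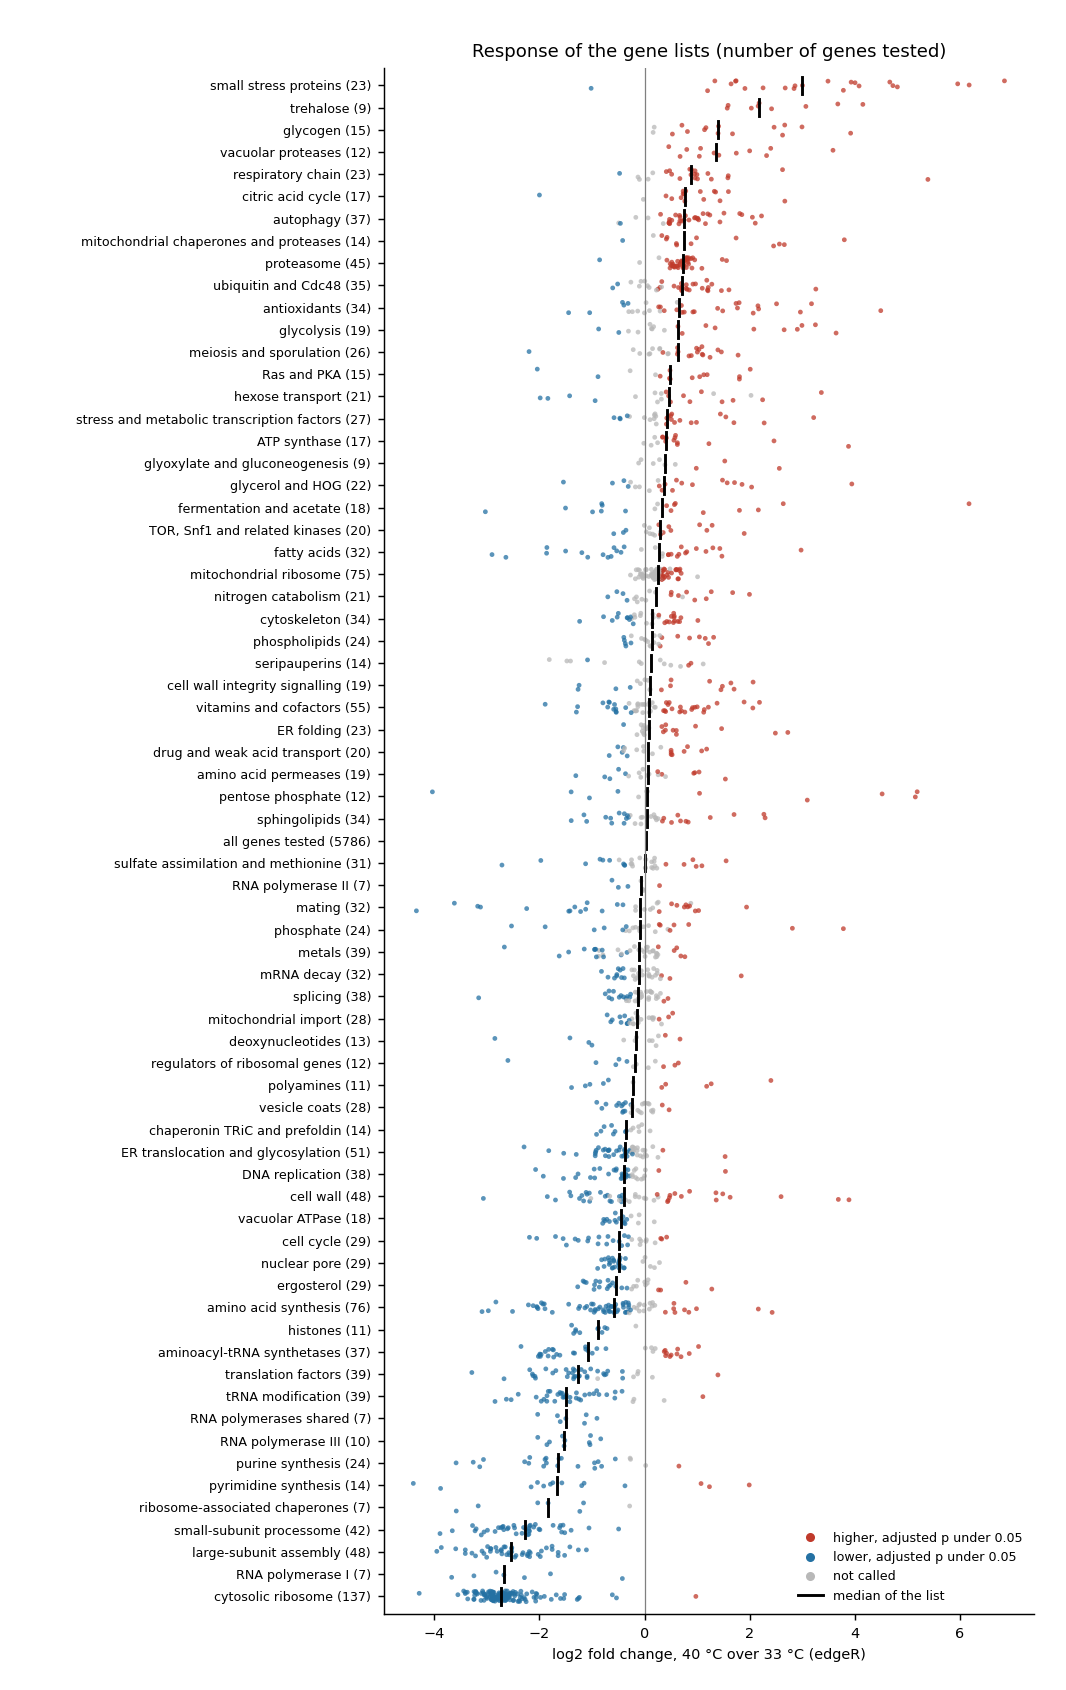
Log2 fold change at 40 °C over 33 °C of every tested gene on each list (points, colored by call) with the median of the list (black bar), ordered by the median; the number tested follows each name. Small stress proteins and trehalose genes lie highest, with medians of 3.01 and 2.18, and the cytosolic ribosome lowest at −2.73.

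Genes of storage carbohydrates rose as a whole, those for synthesis and those for breakdown together. All 9 trehalose genes rose by at least 2-fold, with a median of 2.18. TSL1, a regulatory subunit of trehalose synthase, stood at 219, 153, 2224 and 2551 CPM (3.68), and PGM2, phosphoglucomutase, at 120.0, 63.7, 1587 and 1687 CPM (4.16). TPS1, the synthase itself, rose from 190.2 and 159.7 to 1356 and 1587 CPM (3.07), while the trehalases that split the sugar, NTH1 (2.42), ATH1 (2.03) and NTH2 (1.59), rose as well. Of 15 glycogen genes 13 rose and 0 fell (median 1.40). Glycogen phosphorylase GPH1 (3.92) and the debranching enzyme GDB1 (2.999), which break glycogen down, stood beside glycogen synthase GSY2, at 96.8, 78.2, 545 and 537 CPM (2.63).

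Glycolytic genes rose in part, with the largest folds in minor isoenzymes and the largest gains in level in abundant ones. Of 19 genes 10 rose, 2 fell and 7 were not called, and the list went from 9.11% and 8.201% of all counts to 13.9% and 14.5%. Glucokinase GLK1, whose coding sequence overlaps another gene, stood at 305, 179, 2778 and 3279 CPM (3.65), hexokinase HXK1 at 341, 162, 2153 and 2644 CPM (3.25), and glyceraldehyde-3-phosphate dehydrogenase TDH1 at 754, 331, 4476 and 4190.3 CPM (2.998). These rises were several-fold, with the lower control in replicate 2 each time. TDH3, the most abundant member, went from 22941 and 19647 to 34320.0 and 35731 CPM (0.72, adjusted p = 3.97e-03, edgeR), and PGK1, the only phosphoglycerate kinase gene, from 9482 and 7647 to 21161 and 22323 CPM (1.34). Hexokinase HXK2, the main isoenzyme of growth on glucose, fell from 1105 and 1038 to 561 and 609 CPM (−0.87), and GPM3 fell with it (−0.49; adjusted p = 0.0525 without heat shock replicate 1, edgeR). Among the 7, PGI1 (0.13), FBA1 (0.17) and TPI1 (0.10), did not pass the test, nor did pyruvate kinase CDC19 (−0.31), which was lower with a call without heat shock replicate 2 (−0.38), with DESeq2 and with size factors of its kind (both −0.33). Among 21 genes of hexose transport 10 rose and 4 fell. HXT5, a transporter of slow growth, went from 18.6 and 12.2 to 161 and 155 CPM (3.37), while HXT2 (−1.99), HXT3 (−1.84) and HXT1 (−1.43) fell, and the list's share of counts went from 0.150% and 0.145% to 0.0926% and 0.0796%. HXT6 and HXT7 are near-identical, so reads that matched both were not counted.

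The pentose phosphate pathway split between its branches and between its duplicate genes. In the oxidative branch, which makes NADPH, 3 of 5 genes rose: GND2 (5.19), SOL4 (5.16) and ZWF1, glucose-6-phosphate dehydrogenase, at 384, 289.7, 717 and 676 CPM (1.05). In the non-oxidative branch, which interconverts sugar phosphates, 2 of 7 rose and 4 fell. NQM1, a transaldolase, went from 29.2 and 11.8 to 480.3 and 457 CPM (4.52), and TKL2, a transketolase, rose by 3.10, whereas RKI1 fell by 4.04, SHB17 by 1.40 and RPE1 by 1.05 on the log2 scale. Among aldehyde dehydrogenases and acetyl-CoA synthetases ALD3 (6.18) and mitochondrial ALD4 (2.64) rose while ALD5 fell, from 159.5 and 207 to 21.997 and 22.9 CPM (−3.03).

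Genes of respiration rose on a broad front. Of 17 citric acid cycle genes 15 rose, led by citrate synthase CIT1 at 129, 110.1, 771 and 754 CPM (2.67), MDH1 (1.597) and SDH4 (1.44). Of 23 respiratory chain genes 18 rose and 1 fell (median 0.89), including all 9 of complex III. The fall was that of CYC1, which passed the test neither without control replicate 2 nor without heat shock replicate 1. Among 17 genes of ATP synthase 13 rose and 0 fell. Of the 14 subunits among them 10 rose, 0 by 2-fold, with a median of 0.41. The 3 inhibitors and stabilizing factors of that enzyme rose most: STF2, at 88.7, 50.7, 945 and 1111 CPM (3.88), STF1 (2.47) and INH1 (1.23). The count for ATP synthase fell to 5 without heat shock replicate 2. Mitochondrial chaperones rose strongly, 7 of 8 with a median of 2.10: HSP78, a disaggregase, went from 198 and 137 to 2176 and 2506 CPM (3.80), HSP10 rose by 2.66 and HSP60, its partner in the chaperonin, by 2.57. MGE1, the exchange factor of the mitochondrial Hsp70, was the exception (−0.42, and −0.35 with no call without heat shock replicate 1). Genes of protein import did not share this rise. Of 28 import genes 3 rose and 9 fell, TIM23 of the channel (−0.64) and PAM18 (−0.71) among the falls. The share of falls lay near the 32.7% of all genes, and that of rises below the 33.7%. The falls numbered 3 without heat shock replicate 1 and 4 without heat shock replicate 2, and the rises ranged from 1 without heat shock replicate 2 to 5 without control replicate 1.

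Of 75 mitochondrial ribosomal protein genes 0 fell, where 32.7% of all genes fell, and the median was 0.25. The rises numbered 27, a share near the 33.7% of all genes, and all were by less than 2-fold. The count ranged from 7 to 56 when single libraries were left out, with 7 without heat shock replicate 1, 8 without heat shock replicate 2 and 56 without control replicate 1, so it is poorly fixed. The distance from the cytosolic ribosome was wide: 136 of its 137 tested genes fell, with a median of −2.73 and a share of counts that went from 24.4% and 24.8% to 3.94% and 3.60%. The exception was RPL15B, which rose from 68.2 and 63.3 to 128 and 131 CPM (0.98), while its near-identical partner RPL15A fell from 3441 and 3514 to 334 and 336 CPM (−3.37). Transfer RNA synthetases separated by compartment as well. Of 23 cytosolic enzymes 22 fell (median −1.73) and of 14 mitochondrial ones 10 rose and 0 fell (median 0.41). Threonyl-tRNA synthetase THS1 of the cytosol went from 589.9 and 729 to 155 and 170.2 CPM (−2.02), and the mitochondrial phenylalanyl enzyme MSF1 rose by 0.85. Rises over both compartments numbered 11, and 5 without either heat shock library.

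Genes of fat metabolism divided by direction. Of 16 genes for fatty acid synthesis, elongation and desaturation 12 fell and 3 rose, with a median of −0.74. OLE1, the only fatty acid desaturase, fell from 341 and 437 to 52.5 and 51.3 CPM (−2.90), and the elongases ELO2 and ELO3 both fell by 1.86. Of 16 genes for beta-oxidation and carnitine 11 rose and 2 fell, with a median of 0.68. CRC1, a mitochondrial carnitine carrier, went from 2.95 and 1.53 to 20.5 and 14.2 CPM (2.98), and SPS19 rose by 1.47. Ergosterol synthesis fell in 17 of 29 genes (median −0.55), among them ERG13 (−1.27), ERG6 (−1.17) and NCP1 (−1.14), and 4 rose. In sphingolipid metabolism 8 of 15 synthetic genes fell and 0 rose, while YPC1, a ceramidase, went from 19.9 and 17.5 to 82.8 and 101 CPM (2.30) and YPK2, a kinase of the TORC2 branch, from 10.9 and 14.9 to 57.5 and 67.9 CPM (2.27). AUR1, inositol phosphorylceramide synthase, fell by 1.40. Over the whole sphingolipid list 12 genes fell, and 6 without heat shock replicate 1. Polyamines followed the same form, with 5 of 6 genes for synthesis and its control lower and 4 of 5 exporters higher, TPO4 the most (2.41). The 5 rises of the polyamine list were 3 without either heat shock library, and the 4 of the ergosterol list were 2.

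Proteasome genes rose almost completely and in a narrow range, and those of the ubiquitin system more unevenly. Of 45 proteasome genes 42 rose, all 14 of the core particle and all 19 of the regulatory particle among them, with a median of 0.74, but only 3 reached 2-fold. RPN4, the transcription factor of proteasome genes, went from 127 and 118 to 337 and 347 CPM (1.48), and ECM29, a proteasome adaptor, from 56.6 and 59.5 to 161 and 182 CPM (1.56). POC4, an assembly chaperone, was the exception, at 37.98, 31.2, 18.7 and 19.6 CPM (−0.85). The polyubiquitin gene UBI4 rose from 337 and 190.2 to 2387 and 2670.2 CPM (3.26). All 7 genes of the Cdc48 segregase and its shuttle factors rose (median 0.85), and 12 of 19 conjugating enzymes and ligases, led by UBC5 (1.61) and HUL5 (1.46). Of 8 deubiquitinases 5 rose and 1 fell. The falls of the whole ubiquitin list, 2 of 35 genes against 25 rises, were those of the deubiquitinase UBP1 (−0.61) and the nuclear ligase SAN1 (−0.51), and 4 genes fell without control replicate 1.

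The proteasome genes share a word in their promoters, PACE (GGTGGCAAA), the known site of Rpn4. It stood in 28 of 45 proteasome promoters (62.2%) against 1.16% of all promoters. Sites are printed with 10 bases on each side for the 8 proteasome genes with the largest rises among those whose site leaves room for the flanks, capitals marking the word on either strand.
ECM29, chrVIII:39943-39971, plus strand: gccttttcttGGTGGCAAAaaaaaggtac
PRE10, chrXV:1018856-1018884, minus strand: cctctaaatcGGTGGCAAAaataagaaag
PRE4, chrVI:249959-249987, minus strand: tggtttagaaTTTGCCACCttaaatacgt
PUP2, chrVII:999226-999254, minus strand: aaccaagaccGGTGGCAAAagagtaacct
RPN7, chrXVI:742290-742318, plus strand: ataagttaagTTTGCCACCcattgaggat
PRE3, chrX:435035-435063, plus strand: aacggaatccGGTGGCAAAaaagggaaaa
RPN11, chrVI:153259-153287, plus strand: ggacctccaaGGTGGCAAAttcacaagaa
SCL1, chrVII:475337-475365, minus strand: cacacaccaaTTTGCCACCgtaaggatag
The word stood 5′ to 3′ in 5 of these and on the other strand in 3. The 28 proteasome genes with the word had a median log2 fold change of 0.74 and the 17 without it 0.56. Those with it were nearly all subunits, and those without it were mainly regulators and assembly factors, such as RPN4 and POC4. The medians therefore do not compare like genes, and the part of the word was not tested. Subunits without the word, such as PRE5 and RPN8, rose as well. Of the 39 other genes with the word 28 rose and 3 fell, with a median of 0.81. For 7 of them the site also lies before a proteasome gene on the opposite strand, and of the remaining 32 genes 23 rose. UBI4 (3.26) was among them, as was CUZ1, a zinc-finger protein that binds the proteasome and Cdc48 (1.71).

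Genes for breakdown in the vacuole rose too. Of 37 autophagy genes 32 rose and 1 fell, 14 of them by at least 2-fold. ATG8, the ubiquitin-like protein of the autophagosome membrane, went from 25.04 and 15.6 to 97.7 and 91.998 CPM (2.23), ATG41 rose by 2.11 and ATG39, a receptor for parts of the nucleus and its envelope, by 2.05. ATG5 fell by 0.46, a call lost without heat shock replicate 2. All 12 genes of a list of vacuolar hydrolases, their inhibitors and related proteases rose (median 1.37), among them AMS1, a vacuolar mannosidase (2.00199), and the cell-surface proteases YPS1 (1.07) and YPS3 (1.04). PAI3, the inhibitor of the protease Pep4, went from 14.2 and 6.75 to 125 and 125 CPM (3.59), aminopeptidase APE1 rose by 2.40 and PBI2, the inhibitor of protease B, by 2.32, so enzymes and their inhibitors rose together. Subunits of the vacuolar proton pump did not: 14 of 18 fell and 0 rose, none by 2-fold (median −0.45). That count was 8 without heat shock replicate 1 and 9 without heat shock replicate 2.

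Genes of secretion and of protein folding in the endoplasmic reticulum went apart. KAR2, the Hsp70 of that compartment, stood at 989, 1029.6, 5864 and 7515 CPM (2.73), ERO1, the oxidase that drives disulfide formation, at 132, 133, 650.4 and 840.3 CPM (2.49), and MPD1 rose by 1.47. The median of the 23 folding genes was nevertheless 0.08, with 11 higher (7 without heat shock replicate 2), since most other chaperones and oxidoreductases there stayed near their control levels. HAC1, the factor of the unfolded protein response, rose by 0.61 and its activator IRE1 fell by 0.40, a call lost without control replicate 2 and without either heat shock library. Of 51 genes for translocation and glycosylation 31 fell and 2 rose (median −0.36). ALG3 fell from 102 and 96.6 to 20.1 and 20.4 CPM (−2.29), SEC53 from 932 and 917 to 238 and 285 CPM (−1.82) and PSA1, which makes GDP-mannose, by 1.54. The count lower was 17 without heat shock replicate 1. Of 11 genes of the COPI coat and its Arf GTPases and exchange factors 7 fell and 0 rose, where 32.7% of all genes fell. The falls were those of ARF1, ARF2, GEA1 and GEA2, and of the coat subunits SEC26, COP1 and SEC27. The coat subunits RET2, SEC28, SEC21 and RET3 were not called. Over all 28 genes of vesicle coats 12 fell, 4 without heat shock replicate 1 and 7 without heat shock replicate 2.

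At the cell wall mannoproteins moved both ways and more remodelling enzymes fell than rose. Of 19 mannoproteins 9 rose and 6 fell, with a median of 0.03. CCW12, the most abundant of the list, fell from 11019.6 and 9545 to 6297 and 6312 CPM (−0.71). SPI1 went from 133 and 72.1 to 1567 and 1479 CPM (3.89), PIR3 from 17.5 and 14.1 to 197 and 209 CPM (3.69) and PST1 from 282 and 237 to 1458 and 1684 CPM (2.60). Of 18 remodelling enzymes 10 fell and 4 rose, the largest fall being that of SCW10, a glucanase-like protein, from 500.1 and 568 to 67.6 and 59.7 CPM (−3.07). Signalling for cell wall integrity rose in 9 of 19 genes and fell in 4. The MAP kinase SLT2 went from 117 and 97.1 to 422 and 476 CPM (2.07), and the sensor MTL1 (1.71) and the exchange factor ROM1 (1.64) rose, while the sensor WSC4 (−1.25) and the phosphatase PTP3 (−1.27) fell. Of 12 genes for glycerol 9 rose and 0 fell, with GCY1 at 55.2, 31.2, 709 and 621 CPM (3.95), GUT2 at 2.04 and DAK1 at 1.86. Of 10 genes of the HOG pathway of osmosensing 4 rose and 4 fell (median 0.08), from SSK1 (0.91) to the osmosensor SHO1 (−1.54).

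Among 34 antioxidant genes 21 rose and 5 fell. Cytosolic catalase CTT1 went from 19.0 and 17.8 to 368 and 464 CPM (4.50), peroxiredoxin TSA2 from 61.7 and 23.4 to 409.7 and 358 CPM (3.18) and GPX1 rose by 2.97. GPX2, a related peroxidase, fell by 1.45 and thioredoxin TRX1 by 1.04. The counts of falls were 2 and 3 without heat shock replicate 1 and 2. Of the 23 small stress proteins on their list, chosen from genes known to rise under stress and therefore no independent evidence of direction, 22 rose by at least 2-fold and MRH1 fell (−1.02).

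Genes for the synthesis of nucleotides fell sharply. Of 24 purine genes 20 fell, 15 by at least 2-fold, and ADE16 alone rose (0.65), with a median of −1.64. GUA1, GMP synthetase, went from 601 and 758 to 56.9 and 56.2 CPM (−3.59), AAH1, adenine deaminase, from 184 and 215 to 23.0 and 18.6 CPM (−3.26) and HPT1 of purine salvage fell by 3.14 on the log2 scale. Of 14 pyrimidine genes 11 fell and 3 rose (median −1.66). URA7 went from 164 and 218 to 11.3 and 14.7 CPM, while its duplicate URA8 rose from 55.0 and 59.6 to 116 and 126 CPM (1.08). Large ribonucleotide reductase subunit RNR1 fell from 396 and 456 to 67.7 and 50.4 CPM (−2.85). The small subunits RNR2 (−0.18) and RNR4 (−0.40) did not pass the test, though RNR4 did with DESeq2 (−0.42) and with the replicate number as a block (−0.39). Without control replicate 2 RNR4 stood at −0.58.

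Amino acid synthesis fell in 54 of 76 genes and rose in 9 (median −0.58), and the branched chain enzymes fell the most, 8 of 10 with a median of −1.97. ILV3 went from 319.6 and 416 to 43.8 and 49.9 CPM (−2.97), LEU9 fell by 2.83 and ARO4, at the entry of aromatic synthesis, went from 456 and 466 to 53.6 and 54.4 CPM (−3.09). The regulator GCN4 fell from 1780.5 and 1604 to 742 and 697 CPM (−1.23). The word TGACTC, which Gcn4 binds, stood in 51.3% of these promoters and 6.38% of all, but in 7.08% of promoters of genes higher by 2-fold and 6.26% of those lower. ARO9, an aromatic aminotransferase of amino acid use, rose from 73.5 and 105 to 407 and 557 CPM (2.43) and the ornithine carbamoyltransferase ARG3 by 2.17. Sulfate assimilation stayed near its control level (median 0.14 over 11 genes, 2 higher and 2 lower), while SAM1, S-adenosylmethionine synthetase, fell from 755 and 768 to 129.7 and 102 CPM (−2.71).

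Some iron uptake genes, ARN2 and FIT1, differed with the replicate number as well as between the temperatures. The 27 iron genes had 8 falls, near the 32.7% of all genes, and 3 rises, below the 33.7%. The falls were led by the reductase FRE1, at 373, 374, 69.9 and 47.4 CPM (−2.67). The siderophore gene ARN2, however, stood at 258 and 99.2 CPM in control replicates 1 and 2 and at 92.2 and 38.2 CPM in heat shock replicates 1 and 2 (−1.44, adjusted p = 0.0440, edgeR), and FIT1 at 73.8, 26.4, 40.2 and 17.0 CPM did not pass the test. In both, replicate 1 was above replicate 2 at each temperature by more than 2-fold. The cell wall gene TIR1 had the same form, at 1351, 578, 418 and 177 CPM (−1.70). Without control replicate 1, ARN2 stood at −0.62 and TIR1 at −0.98 with no call, and both calls were also lost without heat shock replicate 2 (−0.97 and −1.23). FIT1 stood at −1.36 without control replicate 2. With the replicate number as a block it stood at −0.78 with a call, but that fit had little left to estimate the spread from.

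The machinery of gene expression fell by class of polymerase. All 7 genes of RNA polymerase I fell (median −2.68), all 10 of RNA polymerase III (−1.52) and all 7 shared subunits (−1.50), while of 7 genes specific to RNA polymerase II 3 fell and 1 rose, with a median of −0.07. RPA190, the largest subunit of polymerase I, went from 214 and 306 to 23.8 and 31.1 CPM (−3.25), and RPO21, the largest of polymerase II, stood at 237, 271, 294 and 325 CPM (0.29, adjusted p = 0.0489, edgeR), a call lost without control replicate 1 (0.17) and without either heat shock library. All 42 genes of the small-subunit processome and all 48 of large-subunit assembly fell, with medians of −2.28 and −2.55. Of 39 tRNA modification genes 35 fell (median −1.49), led by TRM11 (−2.85) and TRM1 (−2.63), and TAD2 rose (1.11). Of 39 translation factors 33 fell, YEF3, elongation factor 3, from 3617 and 4462 to 392 and 435 CPM (−3.29). Processing of messenger RNA moved less: of 38 splicing genes 13 fell, near the 32.7% of all genes, and 2 rose (median −0.12). The falls were fewer without either heat shock library. PRP43, a helicase used in splicing and in ribosome assembly alike, nevertheless fell from 237 and 299 to 29.3 and 30.8 CPM (−3.16). Among 29 nucleoporin genes 24 fell and 0 rose, none by 2-fold, and 10 were lower without heat shock replicate 1.

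**Figure D4:**
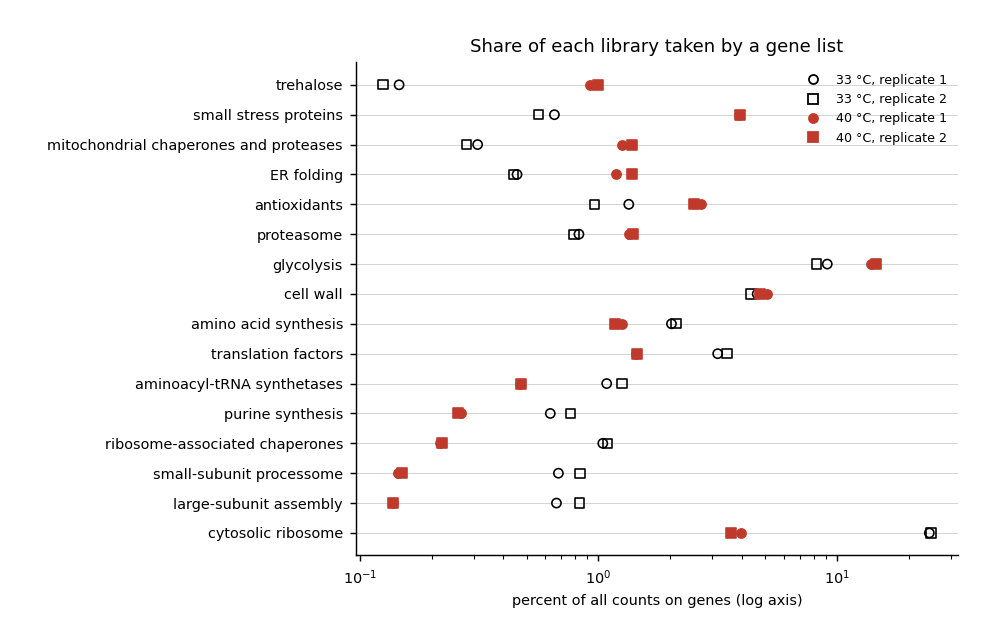
Percent of all counts on genes (log axis) taken by 16 gene lists in each library; open symbols are the 33 °C controls and filled symbols the 40 °C libraries. The cytosolic ribosome goes from 24.4% and 24.8% to 3.94% and 3.60%, trehalose genes from 0.146% and 0.125% to 0.926% and 0.993%, and the cell wall list stays between 4.36% and 5.08%.

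Most chaperones that work at the ribosome fell, and the chaperonin TRiC was mostly not called. Of 7 genes for chaperones at the ribosome 6 fell by at least 2-fold: SSB1 went from 3174 and 3449.6 to 276 and 277 CPM (−3.58), SSB2 fell by 3.17 and ZUO1 by 2.03 on the log2 scale. All 6 prefoldin genes fell (median −0.70), and 2 of 8 genes of the chaperonin TRiC, whose median was −0.16.

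Genes of growth control and the cell cycle fell in part. Of 11 histone genes 10 fell (median −0.89), with HTB2 at 812, 856, 317 and 320.2 CPM (−1.39). Of 29 cell cycle genes 19 fell and 3 rose, led by cyclins of the G1 to S transition, CLB6 (−2.19) and CLN2, at 183, 203, 47.9 and 44.96 CPM (−2.05). Of 38 DNA replication genes 26 fell and 2 rose. POL30, the sliding clamp, fell from 226 and 209.5 to 54.8 and 48.5 CPM (−2.07) and POL1 by 1.93, while TAH11, a licensing factor, rose from 71.0 and 74.8 to 196 and 229 CPM (1.54). The count of falls was 13 without heat shock replicate 1 and 16 without heat shock replicate 2. In the Ras and protein kinase A pathway 11 of 15 genes rose and 2 fell. Rises included brakes on the pathway, the phosphodiesterase PDE1, at 61.8, 59.8, 249 and 242 CPM (2.01), the GTPase activator IRA2 (1.81) and the regulatory subunit BCY1 (1.19), as well as adenylate cyclase CYR1 (1.13) and the catalytic subunit TPK2 (1.05). RAS1 fell from 101 and 112 to 27.7 and 23.9 CPM (−2.04). Of the main stress regulators themselves, HSF1 rose from 104 and 99.2 to 186 and 189.9 CPM (0.89), and MSN2 (0.18) and MSN4 (0.22) did not pass the test. Without control replicate 2 MSN2 stood at 0.24, and MSN4 passed with the replicate number as a block (0.22). SIP4 (3.22), USV1 (2.28) and ADR1 (1.70) of carbon control rose most among 27 such factors. TOD6, a repressor of ribosome assembly genes, fell from 84.2 and 99.0 to 17.1 and 12.97 CPM (−2.60). Its partner DOT6 did not pass the test (−0.16). DOT6 made up 72.2% and 68.4% of the pair's message per length in the controls and 92.5% and 93.2% after heat shock.

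Mating genes split by cell type. All 4 alpha-specific genes fell steeply, with a median of −3.40: beside MF(ALPHA)1, the a-factor receptor STE3 went from 316 and 321 to 40.0 and 33.0 CPM (−3.12), the agglutinin SAG1 from 363 and 368 to 42.6 and 38.2 CPM (−3.18) and MF(ALPHA)2 fell by 3.62 on the log2 scale. Of 6 a-specific genes, which alpha cells keep low, 5 rose, though from and to low levels. STE2 stood at 10.3, 8.79, 20.5 and 18.3 CPM (1.03) and MFA1 at 1.55, 1.87, 3.25 and 2.82 CPM (0.82), whose call was lost with DESeq2, without control replicate 1 and without either heat shock library. The call of MFA2 (0.86) was lost with DESeq2 and without each of the 4 libraries in turn. The 10 rises of the whole mating list were 5 without heat shock replicate 1. In the pheromone pathway common to both mating types 10 of 22 genes fell and 5 rose, the largest falls being those of AGA1 (−2.24), the MAP kinase FUS3 (−1.44) and FAR1 (−1.42). Of 26 genes of meiosis and sporulation, which a haploid does not enter, 16 rose and 1 fell (median 0.63), with IME2 at 10.9, 10.5, 23.5 and 22.6 CPM (1.11).

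Some gene duplicates answered in opposite ways, though more pairs moved together. Of 122 pairs of genes with a shared activity, 29 had both members higher, 26 both lower, 38 a call for one member, 10 none and 19 opposite calls, where 33.7% of all genes rose and 32.7% fell. The median distance between partners was 0.87 on the log2 scale, and 32 pairs were at least 2 apart. CYC1 made up 90.9% and 94.8% of cytochrome c message per length in the controls and 18.0% and 19.4% after heat shock, and itself went from 43.9 and 54.8 to 30.0 and 41.3 CPM (−0.47, adjusted p = 0.0478, edgeR). Hexokinase 1 rose from 23.6% and 13.5% of the hexokinase message to 79.4% and 81.3%. PGM1 fell from 55.3% and 71.1% of phosphoglucomutase message to 4.39% and 3.75%, and URA7 from 74.8% and 78.5% of CTP synthase message to 8.91% and 10.4%. The major partner of these pairs thus became the minor one. In other pairs the order stayed: TKL1 went from 98.3% and 98.6% to 84.0% and 83.7% of transketolase message, YEF3 from 99.8% and 99.9% to 95.4% and 95.7% of elongation factor 3 and GRS1 from 96.3% and 96.7% to 79.7% and 80.4% of glycyl-tRNA synthetase. FAA1, an acyl-CoA synthetase, rose from 31.9% and 30.2% to 87.3% and 89.4% against FAA4.

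**Figure D5:**
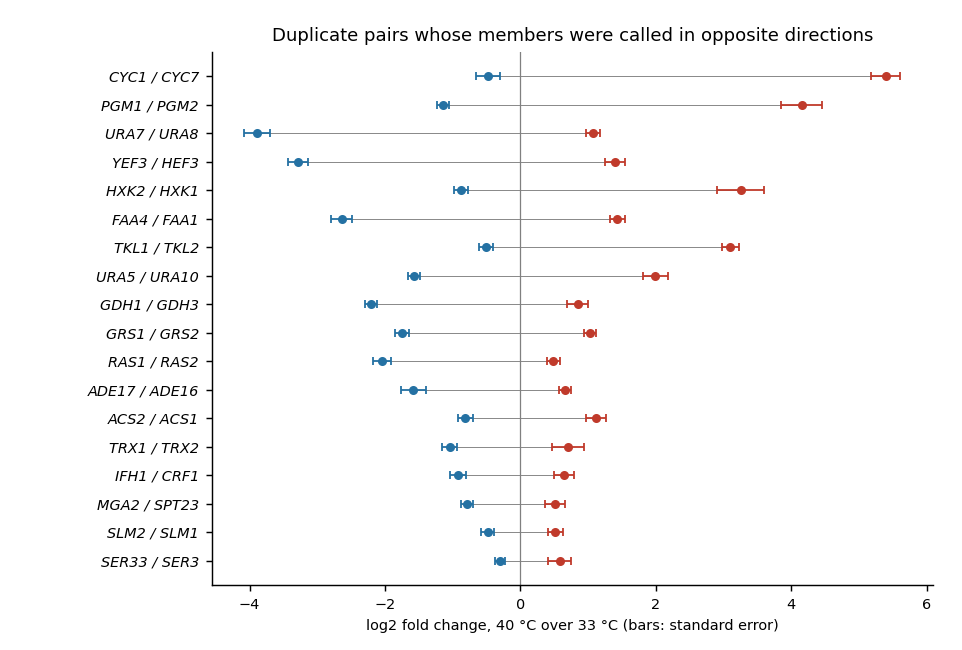
Log2 fold change at 40 °C over 33 °C (edgeR) of 18 of the 19 duplicate pairs whose members were called in opposite directions. The falling member is in blue and named before the rising member in red. Bars show 1 standard error, the size of the log2 fold change divided by the square root of its test statistic F. CYC1 and CYC7 lie farthest apart, at −0.47 and 5.40, and SER33 and SER3 closest, at −0.30 and 0.58, calls lost without heat shock replicate 1.

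Genes that the annotation leaves without a name fell less often than all genes, of which 33.7% rose and 32.7% fell. Of 590 tested genes with no symbol 219 rose (37.1%) and 94 fell (15.9%), with a median of 0.28. Of 188 genes within 20 kb of a chromosome end 62 rose (33.0%) and 21 fell (11.2%, against 33.5% farther in). Both sets were read beside the 1157 genes of lowest level, of which 34.4% rose and 18.2% fell, and the part of the level was not tested. Coding length bore little relation to the response, with medians between −0.01 and 0.06 over 5 classes of length. Apart from ribosomal protein genes, 170 intron-containing genes had 62 rises and 55 falls, close to the shares of genes with no intron. No list held 449 of the genes that rose by at least 2-fold and 313 of those that fell by as much.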

How the data were processed

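RNA was sequenced in 4 libraries of S. cerevisiae BY4742. The deposited tables hold raw counts per gene: per the study's methods the authors trimmed reads with Trim Galore 0.6.10, aligned them with STAR 2.7.10b to build R64 and counted coding sequences with HTSeq 2.0.2 without regard to strand, keeping uniquely aligned reads, so near-identical copies and overlapping genes are uncertain. The 5 tally rows were left out of tests and library sizes (2 groups of 2). Genes passing edgeR's expression filter were fitted with edgeR 4.0.16 in R 4.3.3 (TMM, quasi-likelihood test, Benjamini-Hochberg over 5786 genes), after the procedure was tested on simulated data. Names, positions and promoters came from the R64 annotation, which matched 6014 of the 6017 genes. Standard errors (SE) were derived as the size of the log2 fold change divided by the square root of the test statistic F. Transcripts per 1000000 (TPM) gave levels per length. Named genes are the 15 largest rises and falls whose conditions did not overlap (10 counts or more in each library of the condition where the gene was higher), up to 3 risers and fallers and the most abundant member of each list, regulators and genes with a role of their own, strain markers and members of opposite pairs; other genes named were chosen after their values were seen. Members, lists and rules were chosen with earlier results of these data known. The alternatives were DESeq2 1.42.0, other scalings, no filter, TPM ratios, a replicate block and leaving out each library. Libraries of the other species were not used here. A few genes and 1 duplicate pair are not reported here.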

Additional observations from a re-analysis of the deposited data

Results flagged for a closer look

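The share of reads that fell in no coding sequence, a tally that enters no comparison above, was 2.12% and 2.00% in the heat shock libraries against 1.82% and 1.85% in the controls, so both heat shock libraries lay above both controls. The tally of reads aligned to more than 1 place went the other way, at 3.30% and 3.27% against 3.90% and 4.04% in the controls. Ambiguous reads did too, at 0.68% and 0.63% against 0.78% and 0.72%. The whole share given to no gene was 6.09% and 5.91% after heat shock and 6.49% and 6.60% in the controls. With 2 libraries a group these are differences in value only and were not tested.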

How the results depend on the processing

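The numbers of genes called higher and lower stayed within 1.5 times of the reported ones throughout: 1733 and 1869 with DESeq2, 1864 and 1966 with size factors of the DESeq2 kind, 2013 and 1775 with library totals, and 1946 and 1903 with no filter. Without single libraries they ranged from 1379 to 1961 higher and from 1426 to 2007 lower, and by at least 2-fold from 628 to 741 and from 764 to 823. With the replicate number as a block 2210 genes were higher and 2092 lower. With 2 libraries a condition that fit had little left to estimate the spread from, so its p-values are not given and its calls carry little weight. Same-numbered libraries deviated together with a correlation of 0.53, but with 2 pairs the numbers were not taken to pair the samples. Of 219 named genes tested, 0 reversed in direction, but some lost or gained a call under an alternative. Of all called genes 92.7% were called the same way with DESeq2, and the share was lowest without a heat shock library. Of 68 list medians 16 changed sign under some alternative, none larger than 0.24 in size, 11 of them on the TPM scale, where the median of all genes was 0.26; relative to that, 1 lay on the other side. The block raised the mitochondrial ribosome's rises from 27 to 42. Heat shock time, strain and growth medium were 1 each, and with 2 libraries a condition genes near the threshold are not well placed.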

Other observations

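Some genes that rose against most of their list, and LST8, start next to a rising gene on the other strand; they were picked after their values were seen. TAD2 of tRNA modification (1.11) faces away from KAR2 (2.73), the licensing factor TAH11 (1.54) from the mitochondrial Hsp70 gene SSC1 (1.74), LST8 of the TOR complexes (1.90) from the chaperone gene SIS1 (2.76) and ALG13 of glycosylation (1.53) from the proteasome gene RPT6 (0.54). Over all 1436 divergent neighbours, 48.6% of the 315 genes next to one that rose by at least 2-fold rose too, and 85 of them fell. For 2701 tandem pairs the shares were 42.9% and 27.6%, and for 1465 convergent pairs 37.9% and 31.5%. Next to a gene lower by at least 2-fold, 174 of 387 divergent neighbours fell and 86 rose. Of all genes in divergent pairs 32.7% rose and 33.0% fell. Reads were counted without strand and only over coding sequence, and no test was made.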
